A study of Mus musculus with 6 samples.

Results

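Prdm16 and 8 further genes of the PRDM family were followed in long-term haematopoietic stem cells (LT-HSC), rare marrow cells from which all blood lineages can be renewed. The members were named in advance as Prdm16, its closest paralog Mecom, and Prdm1, Prdm2, Prdm4, Prdm9, Prdm10, Prdm11 and Prdm15. All 9 were found by NCBI gene ID among the 27179 genes of the table. The knockout group (KO) had the genotype Prdm16-Mx1-Cko/Cko; Tg/+, and so carried the Mx1-Cre transgene on conditional Prdm16 alleles. The control group (WT) had the genotype Prdm16-Mx1-Cko/Cko; +/+, with the same conditional alleles and no transgene. Both groups were adult C57BL/6 mice, 8 to 12 weeks old, and both were injected 5 times with pIpC, an interferon inducer used to activate Mx1-driven Cre. LT-HSC (Lin-, Sca-1+, c-Kit+, CD150+, CD48-) were collected 5 weeks later. Each genotype was 1 pool of 5 mice, sorted into 3 portions, so the 3 libraries of a group are technical replicates and every p-value measures the spread between portions of 1 pool. The Mx1 promoter answers to interferon in many cell types, so deletion is not limited to stem cells.

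Most PRDM proteins join a PR domain, a relative of the SET domain of histone methyltransferases, to zinc fingers that bind DNA. Some members methylate histones themselves and others act by bringing in partners such as CtBP corepressors or histone deacetylases. In mice, Prdm16 and Mecom are both required to maintain blood stem cells, and Prdm16 is also known for the brown fat programme. The comparison shows how far the Prdm16 transcript was reduced and whether a paralog stood at a higher level where it was reduced.

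Prdm16 and Mecom are similar in sequence, and the stretches shown here surround the longest runs they share in coding sequence and in start windows. Whether either run acts on transcription was not tested. The first pair is coding sequence from the GENCODE transcripts around the longest run of identical bases shared by 1 coding sequence of each gene, in a region that encodes zinc fingers. Capitals mark that run of 20 bases, at bases 1141 to 1160 of the 3831-base Prdm16 coding sequence and bases 520 to 539 of a 3156-base Mecom coding sequence.
Prdm16 coding: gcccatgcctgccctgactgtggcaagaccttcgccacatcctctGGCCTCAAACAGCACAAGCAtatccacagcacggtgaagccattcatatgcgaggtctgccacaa
Mecom coding: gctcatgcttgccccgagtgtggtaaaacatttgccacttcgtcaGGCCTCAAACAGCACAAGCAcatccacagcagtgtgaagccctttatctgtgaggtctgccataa
Of the 110 bases shown, 91 are identical. The longest run shared by the Prdm16 coding sequence was 19 bases with Prdm9, 18 with Prdm4 and 13 to 14 with the other members. For Prdm16, the length of the run thus does not set Mecom clearly apart. The Mecom coding sequence shared runs of 11 to 13 bases with members other than Prdm16. No run of 50 bases was shared between the annotated transcripts of any pair of the 9 members, on either strand. With any other gene, 0% to 3.22% of each member's 50-base runs were shared, the highest share being that of Prdm4. Read length is not given in the sources used here, so this describes reads of 50 bases or more.

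The second pair is a RefSeq start window of each gene (GRCm38.p6, 250 bases before an annotated start and 50 after it). Prdm16 is shown from chr4:154636824-154637123 on the minus strand, and Mecom from its upstream start at chr3:30509710-30510009, also on the minus strand. The annotated span of Prdm16 reaches further upstream than this window, to 154637360. Capitals mark the longest shared run, found by direct comparison.
Prdm16 start: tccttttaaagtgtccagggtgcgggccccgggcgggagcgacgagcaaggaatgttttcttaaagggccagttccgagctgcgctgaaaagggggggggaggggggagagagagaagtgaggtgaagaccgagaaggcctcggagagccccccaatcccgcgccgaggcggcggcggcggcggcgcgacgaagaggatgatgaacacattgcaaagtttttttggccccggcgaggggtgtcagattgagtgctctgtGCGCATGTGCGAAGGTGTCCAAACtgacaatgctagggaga
Mecom start: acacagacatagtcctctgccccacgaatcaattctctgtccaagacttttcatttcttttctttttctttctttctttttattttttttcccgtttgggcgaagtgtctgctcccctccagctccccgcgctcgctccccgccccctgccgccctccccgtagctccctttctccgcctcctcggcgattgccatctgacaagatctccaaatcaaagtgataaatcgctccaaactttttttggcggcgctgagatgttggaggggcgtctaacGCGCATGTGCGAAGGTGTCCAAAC
The run spans 24 bases within these windows and lies after the annotated start in both genes, at bases 260 to 283 of the Prdm16 window and 277 to 300 of the Mecom window. It reaches the end of the Mecom window, so its full length may be greater. On either strand it was held by 2 of 32851 RefSeq start windows of all genes (0.00609%), those of Prdm16 and Mecom. The second Mecom window, at chr3:30013155-30013454, does not hold it. RefSeq windows were matched for 8 of 9 members, by symbol. Between their other pairs, the longest shared run was 8 to 12 bases. A gene total sums all starts, so the deposited values do not separate transcripts from the upstream and downstream Mecom starts, nor the deleted from the retained exons of Prdm16.

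Library totals ran from 36747729 to 43743795 reads. All 9 members passed the filter of at least 1 read per 1000000 (CPM) in at least 3 of 6 libraries, as did 13018 genes in all. Each was tested with limma on the deposited log2 values, and p-values were adjusted over all 13018 genes by the Benjamini-Hochberg method. A gene was called at an adjusted p below 0.05. Over all genes 0.699% were called, 0.407% higher in KO and 0.292% lower, and the groups did not overlap for 16.5% of genes. Of the 9 members, 0 were called higher and 1 lower, and the groups did not overlap for 3. At an unadjusted p under 0.05, limma gave 1 member higher and 2 lower, where the share of all genes was 10.3%, made up of 5.58% higher and 4.72% lower. The voom method in limma likewise called 1 member, Prdm16. The median log2 fold change was 0.07 over the members and 0.003 over all tested genes, and 5 members had a positive value, against 50.5% of all genes.

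Prdm16 (gene ID 70673, chromosome 4, 154316122 to 154637360, minus strand) is the gene targeted by the design. It had 323, 388 and 643 reads in KO libraries, against 1630, 1860 and 1381 reads in WT libraries. These were 8.74, 9.04 and 14.7 CPM in KO and 40.3, 50.5 and 31.7 CPM in WT. The highest KO library stood at less than the lowest WT library, and KO replicate 3 was the highest of its group. Prdm16 fell by 1.93 on the log2 scale (95% interval -2.53 to -1.33, limma adjusted p = 0.00829), and the KO mean was 26.5% of the WT mean. Without KO replicate 2 the limma adjusted p was 0.0508, or 0.065 with the genes of all 6 libraries kept. It was 0.0967 without the variance trend and 0.0599 without the filter on low values. In bulk RNA of a sorted population, fewer cells with the transcript and less transcript per cell cannot be told apart.

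Mecom (gene ID 14013, chromosome 3, 29951296 to 30509759, minus strand), also called Evi1 or Prdm3, encodes the zinc-finger regulator most like Prdm16. It had 8264, 7972 and 8099 reads in KO libraries, against 5587, 5479 and 6652 reads in WT libraries. These were 223.6, 185.7 and 185.4 CPM in KO and 138.3, 148.6 and 152.5 CPM in WT. Every KO library was above every WT library, and the means were 198.2 ± 22.0 CPM in KO and 146.5 ± 7.38 CPM in WT (SD, n = 3 each). Groups that do not overlap with KO higher were found for 8.52% of all genes. The log2 fold change was 0.43 (SE 0.10, 95% interval 0.20 to 0.66), or 1.35-fold with an interval of 1.15 to 1.58. It did not pass the test over all genes (limma adjusted p = 0.141), and ranked 181 by p-value among the 13018. Over 21 alternative fits the log2 fold change was 0.34 to 0.48 and the limma adjusted p 0.0813 to 0.416.

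**Figure D1:**
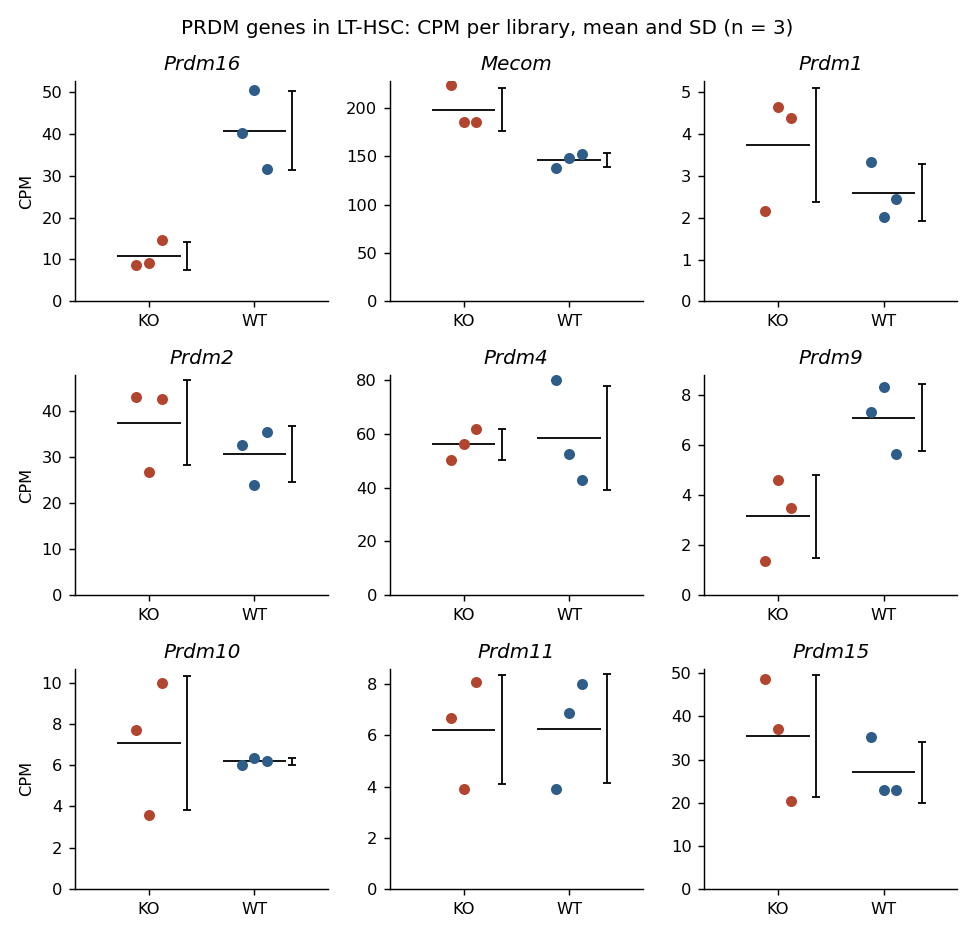
CPM of the 9 PRDM genes in each library, KO left and WT right. Points are libraries, horizontal lines are group means and the bars beside them are ± 1 SD (n = 3 portions of 1 pool), and each panel has its own axis from 0. Prdm16 and Prdm9 have all KO points below all WT points, Mecom has all KO points above, and the groups overlap in the other 6 panels.

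Prdm9 (gene ID 213389, chromosome 17, 15543072 to 15564374) sets recombination hotspots in germ cells, where it trimethylates histone H3 at lysine residues. It had 50, 197 and 152 reads in KO libraries, against 296, 306 and 246 reads in WT libraries. The levels were 1.35, 4.59 and 3.48 CPM in KO and 7.32, 8.30 and 5.64 CPM in WT. Every KO library was below every WT library, with KO replicate 1 the lowest. The log2 fold change of -1.32 (SE 0.52, 95% interval -2.47 to -0.18) did not pass the test (limma adjusted p = 0.403), and it was -0.81 without KO replicate 1. Groups that do not overlap with KO lower were found for 8.01% of all genes.

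Of a fixed list of 9 genes of meiosis, 5 passed the filter and limma called 0, with 0 higher and 1 lower at an unadjusted p under 0.05 and 0 called by voom. The median log2 fold change of the 5 was -0.20. Sycp1, a structural protein of the synaptonemal complex, had 0 reads in every library, and Hormad1, a chromosome axis protein, had 3 reads in all, in KO replicate 2. Spo11, the nuclease that makes meiotic breaks, had 20.0, 17.3 and 23.0 CPM in KO, against 27.7, 32.0 and 29.6 CPM in WT. Its groups did not overlap, and its log2 fold change of -0.57 (SE 0.19) did not pass the test (limma adjusted p = 0.315). Dmc1, a strand exchange protein of meiosis, was at 1.14 ± 1.58 CPM in KO and 1.51 ± 0.773 CPM in WT (SD, n = 3 each). Hells, a chromatin remodeller used in many cell types, had a log2 fold change of 0.11 (SE 0.14).

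Prdm1 (Blimp-1; gene ID 12142, chromosome 10, 44437174 to 44528558), the repressor that drives plasma cell differentiation, was the lowest member by CPM in WT. It had 80, 200 and 192 reads in KO libraries, against 135, 74 and 107 reads in WT libraries. The groups overlapped, since KO replicate 1 was below WT replicate 1 in CPM (2.16 against 3.34). The log2 fold change was 0.47 (SE 0.53, limma adjusted p = 0.803), with a 95% interval of -0.70 to 1.65, and it was 0.28 to 0.83 on leaving out 1 library at a time. Of 8 fixed target genes of Prdm1, 6 were tested and limma called 0, with 3 higher and 1 lower at an unadjusted p under 0.05. Their median log2 fold change was 0.13, and the same with Spib at its lower bound. Spib, a lymphoid ETS factor, had 156, 108 and 209 reads in KO and 0 in each WT library (limma adjusted p = 0.146, and 1 call by voom, for this gene). Id3, an inhibitor of E proteins, had 183, 177 and 241 reads in KO and 0, 14 and 24 in WT (limma adjusted p = 0.232). Ciita, the class II transactivator, had 6.37 ± 1.13 CPM in KO and 11.2 ± 0.744 CPM in WT (log2 fold change -0.82, SE 0.30, limma adjusted p = 0.363). In the same libraries, 10 B and plasma cell markers summed to 212.7 to 215.6 CPM in KO and 63.5 to 68.8 CPM in WT. Of the 6 that were tested, limma called 1 higher and voom 2. At an unadjusted p under 0.05, limma gave 4 of them higher and 1 lower. The gene called by limma was Igkc, the immunoglobulin kappa constant region, with 4301, 5335 and 4995 reads in KO and 0 in each WT library (limma adjusted p = 8.15e-05). The part of these cells in the values of Prdm1 and its targets was not tested.

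Prdm2 (RIZ; gene ID 110593, chromosome 4, 143107391 to 143212769), a methyltransferase that binds the retinoblastoma protein, had 43.0, 26.8 and 42.5 CPM in KO, against 32.6, 23.9 and 35.4 CPM in WT. The groups overlapped, and the log2 fold change was 0.28 (SE 0.24, 95% interval -0.25 to 0.80, limma adjusted p = 0.729). Replicate 2 was the lowest library of each group, and leaving out 1 library at a time gave log2 fold changes of 0.11 to 0.50. Prdm4 (gene ID 72843, chromosome 10, 85891964 to 85917152), a partner of a neurotrophin receptor and of the arginine methyltransferase Prmt5, had 50.5, 56.1 and 61.7 CPM in KO. In WT it had 80.0, 52.5 and 42.8 CPM, a spread that held all 3 KO values. Its log2 fold change was -0.01 (SE 0.22, 95% interval -0.49 to 0.47, limma adjusted p = 0.994), and 0.24 without WT replicate 1.

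Prdm15 (gene ID 114604, chromosome 16, 97791467 to 97851875), known for the upkeep of naive pluripotency in mouse embryonic stem cells, had 48.7, 37.0 and 20.4 CPM in KO, against 35.2, 22.9 and 22.9 CPM in WT. KO replicate 3 was below all 3 WT libraries while KO replicates 1 and 2 were above them. The log2 fold change was 0.33 (SE 0.31, 95% interval -0.37 to 1.03, limma adjusted p = 0.758), and it was 0.06 without KO replicate 1 and 0.68 without KO replicate 3. Prdm10 (gene ID 382066, chromosome 9, 31276110 to 31381731), an activator of the folliculin gene, had 7.68, 3.59 and 10.0 CPM in KO, against 6.01, 6.35 and 6.19 CPM in WT. Its WT libraries lay close together and inside the KO range (log2 fold change 0.07, SE 0.42, limma adjusted p = 0.973). Prdm11 (gene ID 100042784, chromosome 2, 92965151 to 93046165), whose loss speeds lymphoma in mice, had 6.68, 3.91 and 8.08 CPM in KO, against 3.91, 6.89 and 8.00 CPM in WT. The log2 fold change was -0.01 (SE 0.43, limma adjusted p = 0.999).

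**Figure D2:**
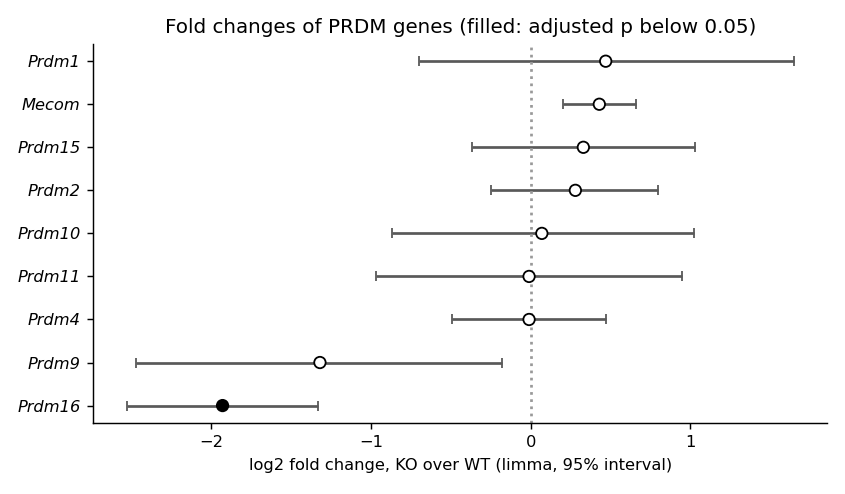
Log2 fold change of each PRDM gene, KO over WT, with its 95% interval from limma over 3 KO and 3 WT libraries. The filled point, Prdm16 at -1.93, is the only 1 with an adjusted p below 0.05. The intervals of Mecom (0.20 to 0.66) and Prdm9 (-2.47 to -0.18) do not reach 0, and those of the other 6 do.

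The upper limits of the 95% intervals bound the increase of each paralog between the WT and KO pools. The intervals cover the spread between portions of a pool, and not that between mice. The limit was 1.38-fold for Prdm4, 1.58-fold for Mecom, 1.74-fold for Prdm2, 1.93-fold for Prdm11, 2.02-fold for Prdm10 and 2.04-fold for Prdm15. It was 3.14-fold for Prdm1, the member with the fewest WT reads, and 0.886-fold for Prdm9. These limits are not adjusted for the number of genes. For the 6 members whose interval includes 1, no change and an increase up to the limit both lie within the interval.

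Levels of different genes were compared per length, as CPM per kilobase of merged GENCODE exon. In WT, Prdm4 (11.9 ± 3.93) and Mecom (11.8 ± 0.594) stood highest and did not differ beyond their spread. Next came Prdm16 (4.38 ± 1.01) and Prdm2 (4.13 ± 0.807), which also overlapped, then Prdm15 (2.38 ± 0.625) and Prdm9 (1.65 ± 0.312; SD, n = 3 for each). Prdm10 (0.668 ± 0.0181), Prdm1 (0.466 ± 0.122) and Prdm11 (0.368 ± 0.124) were lowest, and the values of Prdm1 and Prdm11 overlapped. In KO, Mecom stood at 16.0 ± 1.77 and Prdm4 at 11.4 ± 1.14, and Prdm16 at 1.16 ± 0.361. The KO libraries of Prdm16 (0.938 to 1.58) overlapped in part with those of Prdm9 (0.314 to 1.07) and Prdm10 (0.387 to 1.08).

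**Figure D3:**
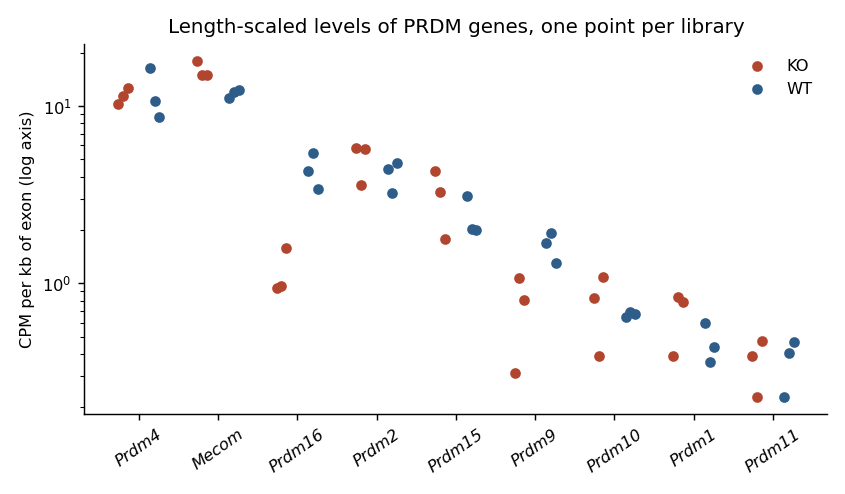
CPM per kilobase of merged exon (log axis) for the 9 PRDM genes, ordered by their WT mean, with KO points left of WT points and 1 point per library. Prdm16 stands at 4.38 in WT, below Prdm4 and Mecom, and its KO points lie between 0.938 and 1.58.

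The differences of Prdm16 and Mecom were set side by side on this per-length scale. Prdm16 stood lower by 3.22 and Mecom higher by 4.16 in KO, as differences of means in CPM per kilobase. Their sum was 18.9, 15.9 and 16.5 in KO libraries, against 15.5, 17.4 and 15.7 in WT libraries. The sums overlapped between the groups, at 17.1 ± 1.60 in KO and 16.2 ± 1.05 in WT (SD, n = 3 each). Prdm16 made up 4.95%, 6.09% and 9.57% of the sum in KO, against 28.0%, 31.2% and 21.7% in WT. Mecom thus stood at 19.2, 15.4 and 9.45 times the Prdm16 level in KO libraries, and at 2.57, 2.21 and 3.61 times that level in WT libraries. The other 7 members together gave 22.1 ± 1.22 in KO and 21.5 ± 4.71 in WT. These sums and ratios carry no test, and a transcript level does not measure protein. Exon length was merged over all annotated transcripts (17 for Mecom and 13 for Prdm16), and those in use in these cells were not resolved. The Prdm16 total in KO also mixes deleted and retained exons.

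**Figure D4:**
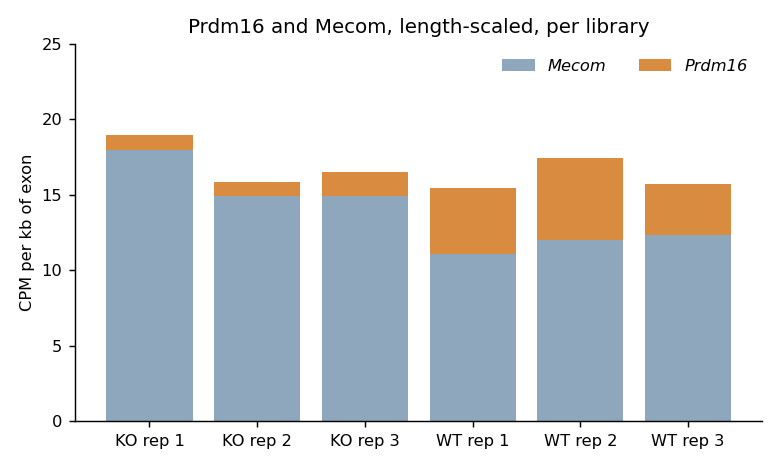
Mecom (lower bars) and Prdm16 (upper bars) in CPM per kilobase of merged exon, stacked for each KO and WT library. The stacked heights are 15.9 to 18.9 in KO and 15.5 to 17.4 in WT, with the Prdm16 part at 0.938 to 1.58 in KO and 3.40 to 5.41 in WT.

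Further PR-domain genes were read in the same way. Zfp408, also known as Prdm17, had 38.5, 17.6 and 16.0 CPM in KO, against 15.4, 21.1 and 18.2 CPM in WT. Its KO replicate 1 stood apart, and the groups overlapped (log2 fold change 0.29, SE 0.33, limma adjusted p = 0.807). Prdm6, Prdm12, Prdm13 and Prdm14 had 0 reads in every library, which allows up to 0.0687 to 0.0814 CPM per library (3 reads, for counting error only). Prdm8 had 10 reads in KO replicate 2 and 0 in the other libraries.

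Annotated genes within and on either side of the Prdm16 and Mecom spans were read as context. 5930403L14Rik lies within the Prdm16 span and was at 19.2 ± 4.73 CPM in KO and 19.2 ± 6.45 CPM in WT (log2 fold change 0.04, SE 0.30). Prdm16os lies 0.22 kilobases from the Prdm16 span and had 41, 85 and 39 reads in KO, against 3, 160 and 61 reads in WT. Strand use in counting is not given in the sources used here, so reads of overlapping or antisense transcripts cannot be told apart. The nearest tested neighbours of Prdm16 were Arhgef16, a guanine nucleotide exchange factor, at -0.31 (SE 0.32), Tprgl at -0.03 (SE 0.10) and, on the far side of Prdm16os, Prxl2b at -0.15 (SE 0.42), all as log2 fold changes. In that order, these genes lay 16.0, 153.8 and 259.1 kilobases from the Prdm16 span. Those of Mecom were Mynn at 0.02 (SE 0.15), Sec62, a part of the protein translocation machinery, at -0.02 (SE 0.09), Rpl22l1 at -0.36 (SE 0.13) and Eif5a2 at 0.55 (SE 0.53). Mynn and Sec62 lay 92.3 and 283.1 kilobases from the Mecom span, and Rpl22l1 and Eif5a2 lay 1143.9 and 1152.5 kilobases from it. None of these tested genes was called by limma (adjusted p = 0.360 to 0.983). Gm10258, which lies within the Mecom span, had 0, 21 and 26 reads in KO, against 0, 84 and 0 reads in WT, and was not tested.

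The 15 genes of a list of Prdm16 and Mecom partner proteins were all tested and limma and voom called 0, with 1 at an unadjusted p under 0.05 and a median log2 fold change of 0.07. That gene was Pparg, the fat cell nuclear receptor, with 133, 273 and 138 reads in KO, against 0, 0 and 30 reads in WT (limma adjusted p = 0.220). Ehmt1, a histone H3K9 methyltransferase that binds Prdm16 in brown fat, was at 104.5 ± 24.6 CPM in KO and 127.0 ± 10.0 CPM in WT (limma adjusted p = 0.558). Ski, a corepressor of TGF-beta signalling, had a log2 fold change of 0.39 (SE 0.21). Of 6 H3K9 methyltransferases, all were tested, limma and voom called 0, 0 had an unadjusted p under 0.05, and the median log2 fold change was 0.03.

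Known Prdm16 target genes of stem cells and brown fat numbered 8, of which 4 were tested. Limma and voom called 0 and none had an unadjusted p under 0.05, with a median log2 fold change of -0.10. Hgf, the hepatocyte growth factor, was at 22.3 ± 10.1 CPM in KO and 22.3 ± 3.10 CPM in WT. Mfn2, a mitochondrial fusion protein, was at 74.6 ± 12.6 CPM in KO and 83.3 ± 13.3 CPM in WT (log2 fold change -0.16, 95% interval -0.54 to 0.22, limma adjusted p = 0.789). The brown fat genes Ucp1, Cidea, Elovl3 and Cox8b had 0 reads in every library.

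Of 10 known Mecom target genes, all were tested and limma and voom called 0, with 2 higher and 2 lower at an unadjusted p under 0.05 and a median log2 fold change of 0.06. Gata1, the erythroid and megakaryocyte factor, had 115.2 ± 6.35 CPM in KO and 91.1 ± 3.82 CPM in WT (log2 fold change 0.34, SE 0.11, limma adjusted p = 0.286). Adgrg1, an adhesion receptor of stem cells, had 2512.8 ± 216.5 CPM in KO and 2931.5 ± 138.7 CPM in WT (log2 fold change -0.22, SE 0.06, limma adjusted p = 0.205).

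The genes whose log2 values were most like those of a member over the 6 libraries were listed as a description, since the libraries share 2 pools and a group difference alone gives a high correlation. For Prdm16 these were Mettl22, Birc5, Fbxo7, Itih5 and Rgs1 (Pearson r = 0.9874 to 0.9959, n = 6). Rgs1, a brake on G protein signalling, was the 1 of them that was called, at 201.1 CPM in KO and 344.7 CPM in WT as means (log2 fold change -0.77, SE 0.09, limma adjusted p = 0.0036). Birc5, the mitotic protein survivin, was at 101.3 CPM in KO and 127.2 CPM in WT (limma adjusted p = 0.281). For Mecom they were Snrnp70, Mrpl53, Gata1, Ifi30 and Acy1 (Pearson r = 0.9838 to 0.9915, n = 6), of which 0 were called (limma adjusted p = 0.270 to 0.598).

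Markers of the sorted cells and of other cell types were read in the same libraries. All 16 genes of the LT-HSC list were tested and limma and voom called 0. At an unadjusted p under 0.05, limma gave 4 higher and 1 lower, and the median log2 fold change was 0.12. The list also holds Cd48, which the sort gate excluded, and Flt3, which was among the 4 higher. These counts and the median therefore do not describe stem cell markers alone. Mecom is itself on that list. Flt3, a receptor of multipotent progenitors, had 50.8 ± 7.15 CPM in KO and 29.9 ± 2.71 CPM in WT (limma adjusted p = 0.0985). Limma called 10 of 12 neutrophil markers higher, with sums of 1113.5 to 1316.4 CPM in KO and 303.7 to 320.6 CPM in WT. It called 5 of 7 eosinophil markers (519.1 to 617.8 CPM in KO and 0.597 to 5.02 CPM in WT) and 2 of 5 tested basophil and mast cell markers (509.8 to 578.6 CPM in KO and 385.3 to 478.6 CPM in WT). Of the 7 genes in the basophil and mast cell list, 4 had 0 reads in every WT library, and Fcer1a averaged 2.80 CPM in WT. Almost all of that WT sum was therefore Cpa3 and Gata2, and Gata2 is also on the Mecom target list. The called genes, Prss34 and Mcpt8, were at 57.9 and 16.4 CPM in KO as means and had 0 reads in WT. Of 6 megakaryocyte markers 1 was called, Pf4, and the sum was 1241.4 to 1383.3 CPM in KO and 886.1 to 964.3 CPM in WT. Of 6 tested macrophage markers 1 was called (Lyz2, sums of 752.0 to 852.1 CPM in KO and 573.1 to 592.2 CPM in WT) and 1 of 5 tested stromal and endothelial markers (Cxcl12, not called by voom, 65.3 to 96.3 CPM in KO and 66.8 to 76.4 CPM in WT). Of 6 tested erythroid markers 0 were called, with 5 at an unadjusted p under 0.05, with sums of 63.5 to 78.1 CPM in KO and 46.0 to 50.7 CPM in WT. The 8 T and NK cell markers summed to 94.2 to 119.2 CPM in KO and 76.2 to 101.0 CPM in WT. Most of each sum was Nkg7, at 95.8 ± 8.72 CPM in KO and 82.7 ± 8.14 CPM in WT (SD, n = 3 each). Of the 8 genes, 3 were tested and limma called 0. In WT, 5 of the 8 had 0 reads in every library, and Cd3e, Cd8a and Ncr1 had 0 reads in every KO library as well. The part of these cell types in the values of Prdm16, Mecom and Prdm9 was not tested.

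**Figure D5:**
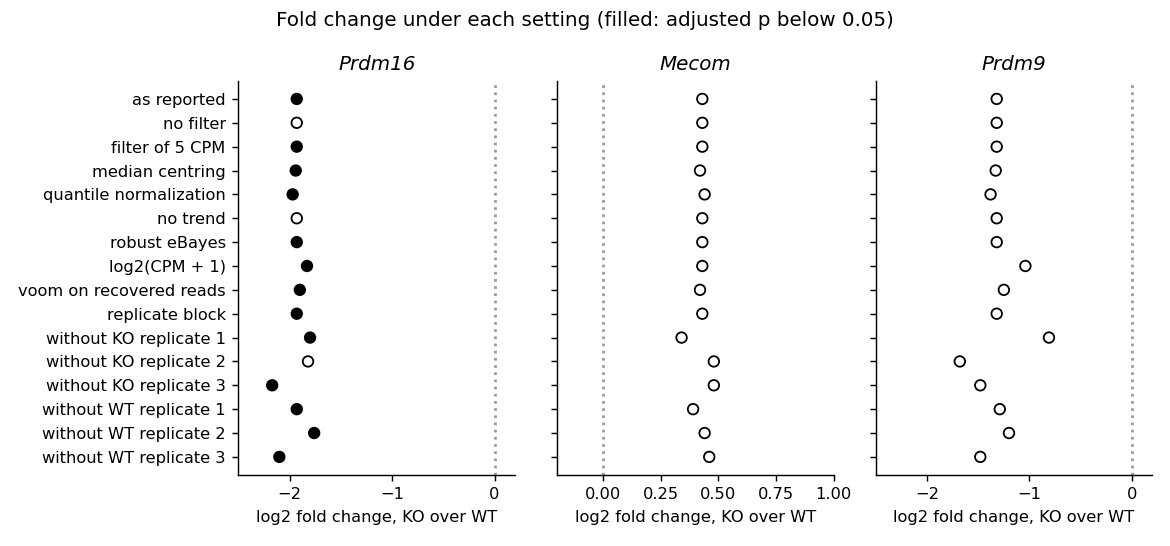
Log2 fold change of Prdm16, Mecom and Prdm9, KO over WT, under each setting of the fit, with filled points where the limma adjusted p is below 0.05. Values run from -2.17 to -1.76 for Prdm16, 0.34 to 0.48 for Mecom and -1.68 to -0.81 for Prdm9, and the open Prdm16 points are the fits with no filter, with no trend and without KO replicate 2.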

How the data were processed

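The authors deposited 1 table of log2 values, with NCBI gene IDs in rows and, per the file headers, 3 knockout and 3 WT columns. HISAT2, featureCounts, FastQC, limma and build mm10 are named in the submitters' processing notes. For versions, strand setting and multiple mapping, the sources used here give nothing. The values match log2 CPM computed after adding 0.5 reads to each gene: undoing this gave whole reads for 100.0% of values within 0.01. CPM in the text are these reads over the effective library size. RefSeq GRCm38.p6 named 25275 genes, and exon lengths came from GENCODE for the same build.

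Genes at or above 1 CPM, offset included, in at least 3 libraries entered a linear model of KO over WT in limma 3.58.1 (R 4.3.3; empirical Bayes with a variance trend), and p-values were adjusted by Benjamini-Hochberg. The script was tested on simulated data. Members, lists and tests were chosen with earlier results of these data known. Named genes were the members, up to 3 genes per list by smallest p, the 5 most correlated genes and the nearest tested genes of Prdm16 and Mecom, and genes overlapping a member. Genes at 0 reads, and Hormad1, Prdm8, Cpa3 and Gata2, were named after their values were seen. Alternatives were the filter, centring, quantile normalization, trend, robust eBayes, log2(CPM + 1), voom, leaving out each library and a replicate block. Intervals and floors cover the spread between libraries or counting error only. Figures used Python 3.11.15 and matplotlib 3.10.9. Some genes of the lists are not reported here by name.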

Additional observations from a re-analysis of the deposited data

How the results depend on the processing

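Over 188 refitted values of the 9 members, 168 kept their direction and their side of the threshold, 4 lost the call (all of Prdm16) and 16 changed sign. The sign changes were those of Prdm4 (0.00 with voom, 0.06 without KO replicate 1 and 0.24 without WT replicate 1, in a range of -0.21 to 0.24), Prdm10 (-0.01 after quantile normalization, -0.05 without KO replicate 1 and -0.24 without KO replicate 3, in a range of -0.24 to 0.50) and Prdm11 (0.29, 0.09 and 0.20 without KO replicate 2, WT replicate 2 and WT replicate 3, in a range of -0.32 to 0.29), none of which was called in any fit, and the cause was not tested. The number of members called lower in KO was 0 with no filter, with no trend and without KO replicate 2, and 0 to 1 over all fits that left out 1 library. Genes called higher in KO, 53 as reported, numbered 19 with no filter, 105 with log2(CPM + 1) and 20 to 66 on leaving out 1 library (28, 22 and 20 without KO replicates 1, 2 and 3 with the genes of all libraries kept). Genes called lower, 38 as reported, numbered 14 with no filter, 15 with no trend, 59 with log2(CPM + 1), 23 with the replicate block and 19 to 31 on leaving out 1 library (22 without KO replicate 2, and 24, 19, 23, 25 and 22 without KO replicates 1, 2 and 3 and WT replicates 2 and 3 with the genes of all libraries kept). Keeping the genes of all 6 libraries while leaving 1 out was added after the data were seen. Same-numbered libraries did not deviate together (r = -0.01, -0.02 and 0.02 for replicates 1, 2 and 3), and the main fit did not pair them. Whether same-numbered portions were handled together cannot be read from these values. With the replicate block Prdm16 was at -1.93 (limma adjusted p = 0.045) and Mecom at 0.43 (0.300). Prdm1, Prdm9, Prdm10 and Prdm11 were each below 10 CPM on average in both groups, and the share of their spread that comes from depth was not measured.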
